A study of Mus musculus and Homo sapiens with 43 samples.

Results

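The Wnt signalling genes of mouse embryonic stem cells were followed through differentiation and through the loss of Polycomb subunits. The set held 46 genes of the 35245 in the first deposited table and the 32231 in the second. They were taken by symbol: every Wnt, Fzd, Sfrp, Dkk and Rspo gene, together with Axin2, Lef1, Tcf7, Lrp5 and Lrp6. By role they comprise 19 Wnt ligands, 10 Frizzled receptors, 2 co-receptors, 4 R-spondins that potentiate the signal, 8 secreted antagonists and 3 nuclear effectors or targets.

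The RNA-seq data cover 24 libraries of the E14 embryonic stem cell (ESC) line, in 12 groups of 2 libraries. Pcgf2 KO and WT cells were sampled as ESC, as embryoid bodies (EB, aggregates that differentiate on their own) on day 3 and day 8, and as neural progenitor cells (NPC). Phc1 KO and Phc1-SAM KO cells were sampled as ESC and NPC. Pcgf2 and Phc1 encode subunits of Polycomb repressive complex 1, which holds developmental genes silent, and the SAM domain is the part of Phc1 through which the complex polymerises. All groups grew in medium with 15% serum. ESC also received LIF (0.003 µg/mL), the MEK inhibitor PD0325901 (1 µM) and the GSK3 inhibitor CHIR99021 (3 µM), EB received none of these, and NPC had 5 µM retinoic acid instead, which labels of other samples of the series place at day 4 to day 8. The labels do not say how the knock-outs were made or whether each is 1 clone. They also do not say whether the 2 libraries of a group came from separate cultures, so p-values measure the spread between these libraries, which may be technical.

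Wnt proteins bind Frizzled receptors with the co-receptors Lrp5 and Lrp6. The bound complex stops GSK3 from marking beta-catenin for destruction, and beta-catenin then acts with the DNA-binding factors Tcf7 and Lef1. Axin2 is a direct target of that step and feeds back on it. CHIR99021 blocks GSK3 and so acts downstream of ligands and receptors. Sfrp proteins bind Wnt ligands, Dkk1 blocks the co-receptors, and R-spondins keep receptors at the cell surface. All Sfrp and Dkk genes are counted here as antagonists by family name, which does not show that each acts so. Some ligands, such as Wnt5a and Wnt11, act mainly without beta-catenin.

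Promoters bound by Polycomb complexes in mammals are typically rich in CG dinucleotides. Sequences from 250 bases before to 50 after the transcription start were matched by symbol for 30 of the 46 genes in RefSeq (GRCm38.p6). At least 10 CG dinucleotides stood in 28 of the 30 (93.3%), against 43.9% of 27025 genes with a promoter in the table, and the median was 30 per promoter against 7. The 2 below that number were Dkk1 (9) and Wnt8b (6). The letters CTTTGAA or CTTTGTT, forms of the site bound by Tcf and Lef proteins, were searched on both strands and stood in 3 of the 30 (10%), against 10.6% of all promoters. Only these letters were searched, so other forms of the site are not counted in either share. These are matches of letters and not measured binding. The promoters of Axin2 (chr11:108920099-108920398, plus strand, 31 CG), Fzd7 (chr1:59481897-59482196, plus strand, 24 CG) and Sfrp2 (chr3:83766071-83766370, plus strand, 22 CG) are shown. Axin2 and Lef1 were picked by name, and Fzd7, Wnt5a, Sfrp2 and Fzd1 for the largest named change in a WT stage comparison. Wnt5a had no promoter in the table, and those of Lef1 and Fzd1 are not printed. Capitals mark CG dinucleotides, and the Fzd7 promoter holds CTTTGTT on the minus strand at positions 121 to 127 of the sequence.
Axin2: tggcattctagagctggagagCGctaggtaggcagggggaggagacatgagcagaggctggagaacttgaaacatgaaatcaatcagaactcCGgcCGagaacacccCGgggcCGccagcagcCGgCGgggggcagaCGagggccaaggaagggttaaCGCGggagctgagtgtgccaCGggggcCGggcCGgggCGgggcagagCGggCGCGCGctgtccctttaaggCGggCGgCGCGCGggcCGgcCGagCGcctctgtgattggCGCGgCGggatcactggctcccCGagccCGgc
Fzd7: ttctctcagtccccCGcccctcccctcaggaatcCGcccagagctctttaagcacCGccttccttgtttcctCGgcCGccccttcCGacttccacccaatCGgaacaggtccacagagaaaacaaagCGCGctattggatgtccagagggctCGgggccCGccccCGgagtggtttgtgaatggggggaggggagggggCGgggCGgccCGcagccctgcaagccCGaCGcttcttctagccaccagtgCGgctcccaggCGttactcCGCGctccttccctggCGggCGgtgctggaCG
Sfrp2: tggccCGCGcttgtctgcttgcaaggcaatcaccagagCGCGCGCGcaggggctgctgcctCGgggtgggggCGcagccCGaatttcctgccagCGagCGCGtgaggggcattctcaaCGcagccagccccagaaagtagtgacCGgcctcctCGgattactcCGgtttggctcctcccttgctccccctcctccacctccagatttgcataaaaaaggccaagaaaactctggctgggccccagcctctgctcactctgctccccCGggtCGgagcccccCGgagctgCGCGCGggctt

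Values were TPM, a gene's share of the transcripts in a library, corrected for length and scaled to a common total, so levels of different genes may be compared within a library. TPM keep no read counts and the depth is unknown. Genes at 1 TPM or more numbered 13131 to 15374 per library in the first table and 13469 to 14550 in the second. Replicates correlated at 0.9864 to 0.9916 across genes. The edited genes were not silent: Pcgf2 lay between 144.1 and 284 TPM in the 8 Pcgf2 KO libraries against 72.4 to 155 in the 8 WT libraries, and Phc1 at 106.3 to 151.5 TPM in the 4 Phc1 KO libraries. A gene-level value does not show whether an edited exon is missing, so it neither checks nor contradicts the labels, and group names here are those of the labels. The libraries labelled NPC differed in identity. Pou5f1, which marks pluripotent cells, stood at 318 and 341 TPM in Pcgf2 KO NPC, 414 and 422 in Phc1 KO NPC and 390.4 and 381 in Phc1-SAM KO NPC, against 0.804 and 1.48 in WT NPC. Pax6, a neural progenitor factor, stood at 1.44 and 1.02 TPM in Pcgf2 KO NPC against 52.5 and 73.8 in WT NPC. It stood at 6.50 and 4.75 TPM in Phc1 KO NPC and 5.07 and 5.20 in Phc1-SAM KO NPC. Of 8 neural progenitor markers, 3 reached a mean of 1 TPM in Pcgf2 KO NPC, 3 in Phc1 KO NPC, 4 in Phc1-SAM KO NPC and 8 in WT NPC. Eif2s3y, a Y-linked gene, lay at 45.7 to 76.1 TPM in all Pcgf2 KO libraries and at 50.4 and 64.7 in WT EB day 8, but at 0.422 to 2.78 in the other 6 WT libraries, so Pcgf2 KO and WT differed in this gene in ESC, EB day 3 and NPC (log2 fold changes 4.01 to 5.30) but not by the test in EB day 8 (0.30, adjusted p 0.28), and WT EB day 8 differed in it from WT EB day 3 and WT NPC. In the second table Eif2s3y stood at 14.0 and 15.8 TPM in Phc1 KO ESC against 2.04 and 5.15 in Phc1-SAM KO ESC (1.88, adjusted p 0.0021). It was at 31.8 and 30.7 TPM in Phc1 KO NPC and 34.7 and 36.6 in Phc1-SAM KO NPC, above the ESC of the same genotype in both (1.02, adjusted p 0.018, and 3.08, adjusted p 8.2e-05). Its part in any result was not tested.

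Differences were tested with limma on log2(TPM + 1) across every gene that reached 1 TPM in 2 or more libraries of its table, and adjusted by Benjamini-Hochberg over all genes tested (17938 in the first table, 15775 in the second). A gene is called here where the adjusted p is under 0.05. The log2 fold changes are on this log2(TPM + 1) scale, which understates the change of low genes. Of the 46 genes, 40 passed the filter in the first table, and Dkk4, Wnt10a, Wnt10b, Wnt16, Wnt8b and Wnt9b did not. The filter left 35 in the second table, where Rspo2, Rspo3, Rspo4, Wnt1, Wnt10a, Wnt10b, Wnt16, Wnt2b, Wnt7a, Wnt8b and Wnt9b did not pass. The highest value of an untested gene was 1.22 TPM for Wnt16 in the first table, in 1 library of Pcgf2 KO EB day 8, and 1.37 TPM for Wnt10b in the second, in 1 library of Phc1-SAM KO NPC. Wnt8b, Wnt9b and Wnt10a stayed under 1 TPM in all 24 libraries. Wnt3 and Wnt9b overlap on chromosome 11 in the annotation, so their reads may be shared and the values of Wnt3 are uncertain to that degree. In bulk samples, fewer cells of a type and less RNA per cell cannot be told apart.

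**Figure D1:**
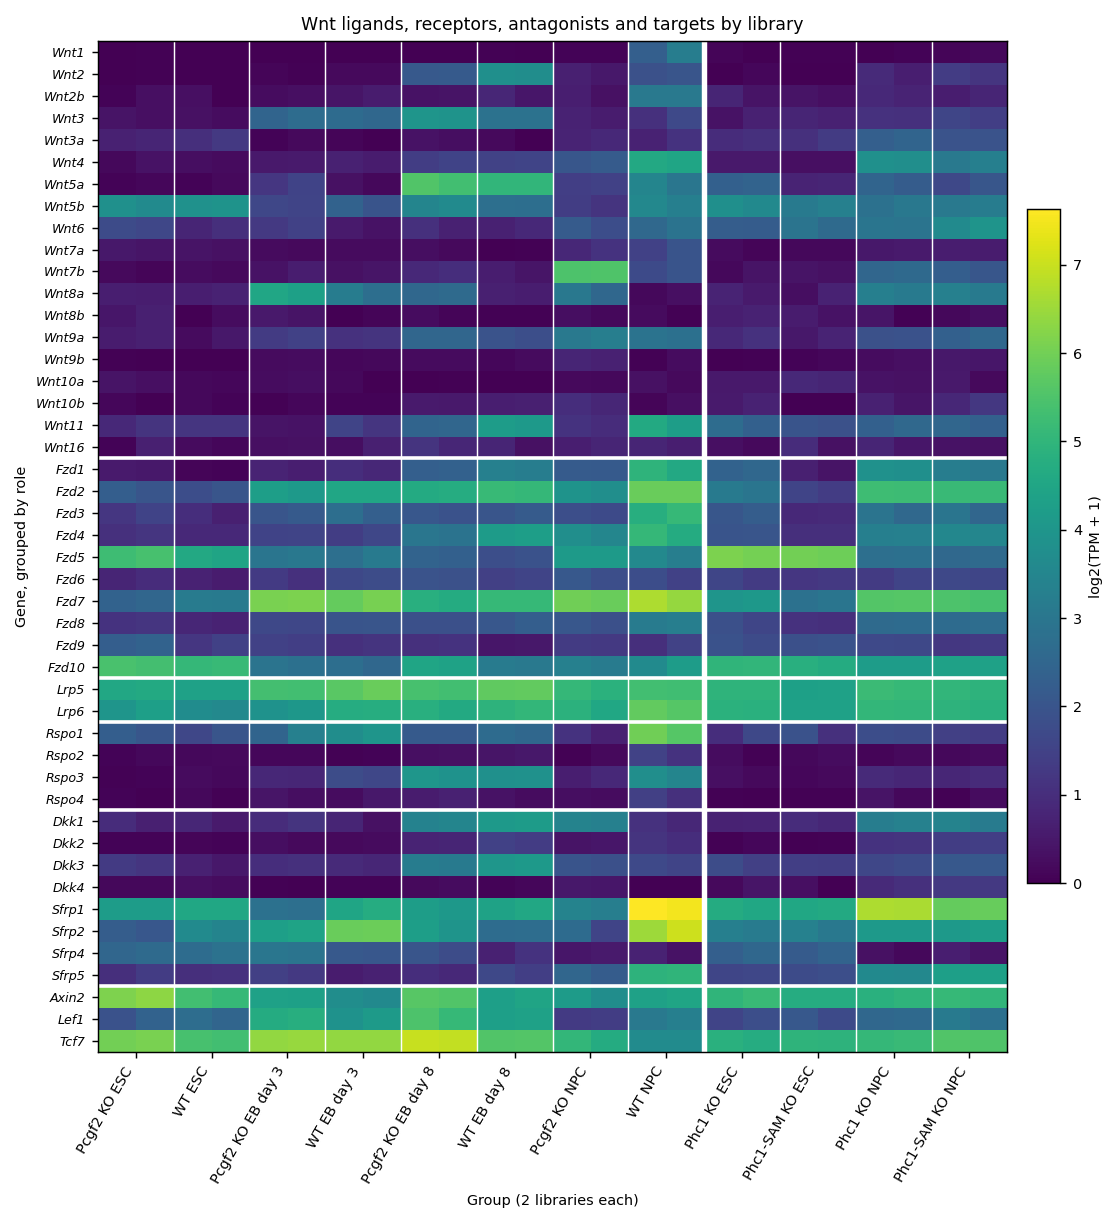
Level of each of the 46 Wnt genes in each of the 24 libraries as log2(TPM + 1), grouped by role down the page and by group across it, with the 2 libraries of a group side by side; the thick white line separates the 2 deposited tables. Sfrp1 and Sfrp2 stand out in WT NPC, and Tcf7 is high in most groups.

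The WT cells were described first, to show how the pathway is staffed as differentiation proceeds. In ESC few ligands were present: Wnt5b, a ligand of the kind that acts mainly without beta-catenin, was at 13.5 and 14.1 TPM, while no other Wnt ligand exceeded 1.43 TPM. Fzd10 (32.6 and 34.6 TPM) and Fzd5 (23.1 and 21.1 TPM) were the leading receptors, and Axin2 stood at 39.1 and 33.5 TPM under the GSK3 inhibitor. By EB day 3, when LIF and the inhibitors had been withdrawn, 18 of 40 Wnt genes were called higher and 7 lower than in ESC. That is 62.5% of them, against 55.8% of all genes tested (36.6% higher and 19.1% lower), a share close to the background. The median log2 fold change was 0.26 over the Wnt genes and 0.15 over all genes.

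The nuclear genes parted at this step. Axin2 fell to 12.3 and 11.2 TPM in WT EB day 3, against 39.1 and 33.5 in WT ESC (log2 fold change -1.54, SE 0.14, adjusted p 2e-06). Tcf7, a transcription factor that carries the Wnt signal, rose to 83.3 and 83.5 TPM in WT EB day 3, against 41.5 and 39.1 in WT ESC (1.03, SE 0.093, adjusted p 2.4e-06). Its relative Lef1 rose to 13.8 and 17.0 TPM, against 5.62 and 4.57 in ESC (1.42, SE 0.18, adjusted p 3.6e-05). The libraries of the 2 stages did not overlap for any of the 3 genes, and Axin2 went the opposite way to both factors.

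Receptors moved in both directions. Fzd7 rose to 55.7 and 65.3 TPM in WT EB day 3, against 8.09 and 7.69 in WT ESC (log2 fold change 2.79, SE 0.097, adjusted p 1.4e-09), and Fzd2 to 21.9 and 21.9 against 2.46 and 3.00 (2.62, SE 0.11, adjusted p 3.9e-09). Fzd10 fell to 5.80 and 4.88 TPM against 32.6 and 34.6 in ESC (-2.45), and Fzd5 to 5.88 and 7.60 against 23.1 and 21.1 (-1.58). In all, 7 of 10 receptors were called higher and 2 lower, 90% against 55.8% of all genes (36.6% higher and 19.1% lower). Both co-receptors rose: Lrp5 reached 50.5 and 57.8 TPM in EB day 3 against 19.4 and 19.7 in ESC, and Lrp6 25.6 and 26.1 against 12.2 and 11.2. Among ligands, Wnt3 (5.33 and 4.89 TPM in EB day 3 against 0.257 and 0.182 in ESC) and Wnt8a (8.22 and 5.79 against 0.554 and 0.672), both ligands of the beta-catenin branch active around gastrulation in the mouse, rose. Wnt5b fell to 4.31 and 2.95 TPM, against 13.5 and 14.1. The potentiator Rspo1 rose to 12.2 and 14.7 TPM against 2.07 and 3.04, and the antagonist Sfrp2 to 58.0 and 59.0 against 11.6 and 9.94, while Sfrp4 fell to 3.38 and 3.16 against 5.46 and 6.34. Sfrp1 was at 21.4 and 25.2 TPM in EB day 3 and 22.4 and 22.3 in ESC (adjusted p 0.7).

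A second list held 50 other Wnt pathway genes. Of the 46 of these tested, 27 were called higher and 8 lower, 76.1% against 55.8% of all genes (36.6% higher and 19.1% lower). Cdx1, a homeobox gene known as a Wnt target, was at 0.16 and 0.0352 TPM in WT EB day 3 against 67.6 and 78.2 in WT ESC (log2 fold change -6.07, SE 0.14, adjusted p 8.5e-11). Notum, which encodes an enzyme that strips Wnt ligands of their lipid and is itself a feedback target, was at 1.64 and 1.80 TPM against 35.7 and 31.8 (-3.68). Prickle1, of the planar polarity branch, went up to 19.4 and 19.4 TPM against 0.637 and 0.603 (3.65). T, a mesoderm factor and Wnt target, was at 28.5 and 13.9 TPM in WT EB day 3 against 5.08 and 5.36 in WT ESC.

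From EB day 3 to EB day 8 Wnt genes were again called in both directions. Of 14 ligands tested 6 were called higher and 1 lower (50%), and of 7 antagonists 4 were called higher and 2 lower (85.7%). Of 10 receptors 4 were called higher and 3 lower (70%), of 4 R-spondins 2 higher and 1 lower, and neither co-receptor was called. Of 40 Wnt genes 17 were called higher in WT EB day 8 and 8 lower, that is 62.5% against 57.6% of all genes (33.6% higher and 24% lower), and after quantile normalization the split was 15 higher and 11 lower. Wnt5a rose to 31.6 and 31.2 TPM in WT EB day 8, against 0.264 and 0.113 in WT EB day 3 (log2 fold change 4.77, SE 0.17, adjusted p 8.6e-10). Wnt2 was at 13.1 and 12.2 TPM against 0.145 and 0.134 (3.58), and Wnt11 at 17.4 and 15.97 against 1.96 and 1.26 (2.77). Wnt8a fell back to 0.594 and 0.530 TPM, against 8.22 and 5.79. The day 8 and day 3 libraries did not overlap for any of the 4 ligands, but lack of overlap was a condition for naming such genes.

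Secreted regulators moved in both directions. The co-receptor blocker Dkk1 rose to 16.5 and 17.1 TPM in WT EB day 8, against 0.742 and 0.276 in WT EB day 3 (3.58, SE 0.17, adjusted p 1e-08), and Dkk3 to 15.0 and 15.98 against 0.871 and 0.754 (3.19). Sfrp2 fell to 5.46 and 5.64 TPM, against 58.0 and 59.0 (-3.18, SE 0.28, adjusted p 1.8e-06), and Rspo1 fell to 5.30 and 4.83 against 12.2 and 14.7. Fzd4 rose to 17.1 and 18.4 TPM against 1.60 and 2.05, while Fzd7 fell to 33.4 and 33.5 against 55.7 and 65.3. Axin2 rose to 18.7 and 21.1 TPM against 12.3 and 11.2 (0.71, adjusted p 0.00078), and Tcf7 fell to 46.1 and 46.9 against 83.3 and 83.5. Of the other pathway genes 19 were called higher and 13 lower, 69.6% against 57.6% of all genes. They were led by Nkd1, an inhibitor of Dishevelled, at 56.8 and 54.7 TPM in EB day 8 against 6.68 and 6.86 in EB day 3 (2.87). Summed markers of cell types moved both ways from WT EB day 3 to WT EB day 8. The 8 blood and endothelial markers came to 5508 and 4859.8 TPM in EB day 8 against 4.57 and 5.50. The 6 fibroblast markers came to 1223 and 1268 TPM against 5.86 and 6.29. The 6 primed epiblast markers fell to 81.1 and 80.2 TPM against 1333 and 1454, and the 8 neural progenitor markers to 29.9 and 27.0 against 161 and 174. Their part in these results was not tested.

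Retinoic acid aggregates were set against EB of day 8 and against ESC. In WT NPC 25 of 40 Wnt genes were called higher and 9 lower than in WT EB day 8, 85% against 58.2% of all genes (38.1% higher and 20.1% lower). The 40 include the genes that passed the filter only through WT NPC. The median log2 fold change was 0.81 over the Wnt genes and 0.16 over all genes. The summed TPM of the 46 genes was 914.8 and 892.8 in WT NPC, against 443.6 and 452.1 in WT EB day 8. Antagonists made up 321.7 and 345.0 TPM of the NPC sum, and receptors 282.8 and 262.5. Markers of other cell types moved as well. Blood and endothelial markers summed to 661 and 618 TPM in WT NPC against 5508 and 4859.8 in WT EB day 8 (1 of 8 called higher, 5 lower), and fibroblast markers to 203 and 173 against 1223 and 1268 (6 of 6 lower). Endoderm markers summed to 181 and 137 TPM against 949 and 932 (9 of 10 lower), and neural progenitor markers to 324 and 413 against 29.9 and 27.0 (8 of 8 higher). Their part in the Wnt result was not tested.

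Of 7 antagonists tested 3, all of the Sfrp family, were called higher and 3 lower. Among all genes 38.1% were called higher and 20.1% lower. Sfrp1 rose to 196.8 and 179.6 TPM in WT NPC, against 20.0 and 22.9 in WT EB day 8 (log2 fold change 3.07, SE 0.1, adjusted p 1.1e-09). Sfrp2 rose to 90.1 and 131 TPM against 5.46 and 5.64 (4.06, SE 0.28, adjusted p 3.1e-07), and Sfrp5 to 29.5 and 30.6 against 2.16 and 1.69 (3.41). Rspo1 reached 62.0 and 47.8 TPM against 5.30 and 4.83 (3.19). Dkk1 and Dkk3 went the other way, with Dkk1 at 1.13 and 0.818 TPM in NPC against 16.5 and 17.1 in EB day 8 (-3.18). Libraries of the 2 groups were fully apart for each of these genes, which the rule for naming them required.

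Of 14 ligands tested 9 were called higher and 3 lower, against 38.1% of all genes higher and 20.1% lower. Wnt4 rose to 23.1 and 21.6 TPM in WT NPC, against 1.81 and 1.96 in WT EB day 8 (3.02). Wnt1, a ligand of the dorsal neural tube, reached 3.92 and 8.39 TPM in NPC against 0.0265 and 0, and Wnt2b stood at 7.54 and 7.54 against 0.760 and 0.365. Wnt2, Wnt3 and Wnt5a fell, Wnt5a to 10.1 and 7.05 TPM against 31.6 and 31.2 (-1.78). Of 10 receptors 9 rose and none fell, among them Fzd3 at 26.6 and 33.8 TPM against 3.05 and 3.54 (2.85). Lef1 fell to 7.52 and 8.89 TPM against 18.9 and 19.7, and Tcf7 to 11.9 and 11.7 against 46.1 and 46.9 (-1.89, SE 0.093, adjusted p 1.9e-08), while Axin2 was at 19.4 and 21.2 against 18.7 and 21.1 (adjusted p 0.9). Among other pathway genes 23 rose and 8 fell (67.4% against 58.2% of all genes), with T at 0.171 and 0.26 TPM against 16.4 and 12.3 (-3.64).

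Against WT ESC, WT NPC had 30 of 40 Wnt genes called higher and 7 lower, 92.5% against 75% of all genes (53.4% higher and 21.6% lower), with a median log2 fold change of 1.73 beside 0.46 over all genes. Genes that passed the filter only through WT NPC are among the 40. All 4 R-spondins, both co-receptors and 7 of 10 receptors rose. Fzd1 stood at 29.9 and 23.4 TPM in NPC against 0.0824 and 0.0547 in ESC (4.68, SE 0.13, adjusted p 5.6e-11), and Wnt4 at 23.1 and 21.6 against 0.228 and 0.176 (4.28). Fzd10, Fzd5, Sfrp4, Tcf7 and Axin2 fell, Axin2 to 19.4 and 21.2 TPM against 39.1 and 33.5 (-0.80, adjusted p 0.0002). Lef1 was called higher (0.60, adjusted p 0.0097), but its difference was 0.03 after median-of-ratios scaling (adjusted p 0.87) and -0.27 after quantile normalization (adjusted p 0.11), and it was not called without the second library of ESC (adjusted p 0.077) or of NPC (0.071). Wnt5b, called lower at -0.46, was not called without the second library of ESC (-0.44, adjusted p 0.074) or of NPC (-0.34, adjusted p 0.13). Naive pluripotency markers summed to 42.9 and 38.6 TPM in WT NPC against 3630 and 3687 in WT ESC (10 of 10 called lower). Blood and endothelial markers summed to 661 and 618 TPM against 51.3 and 51.4 (7 of 8 called higher), endoderm markers to 181 and 137 against 2.57 and 2.80 (9 of 10 higher), and fibroblast markers to 203 and 173 against 0.935 and 1.11 (5 of 6 higher). Their part in these results was not tested.

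**Figure D2:**
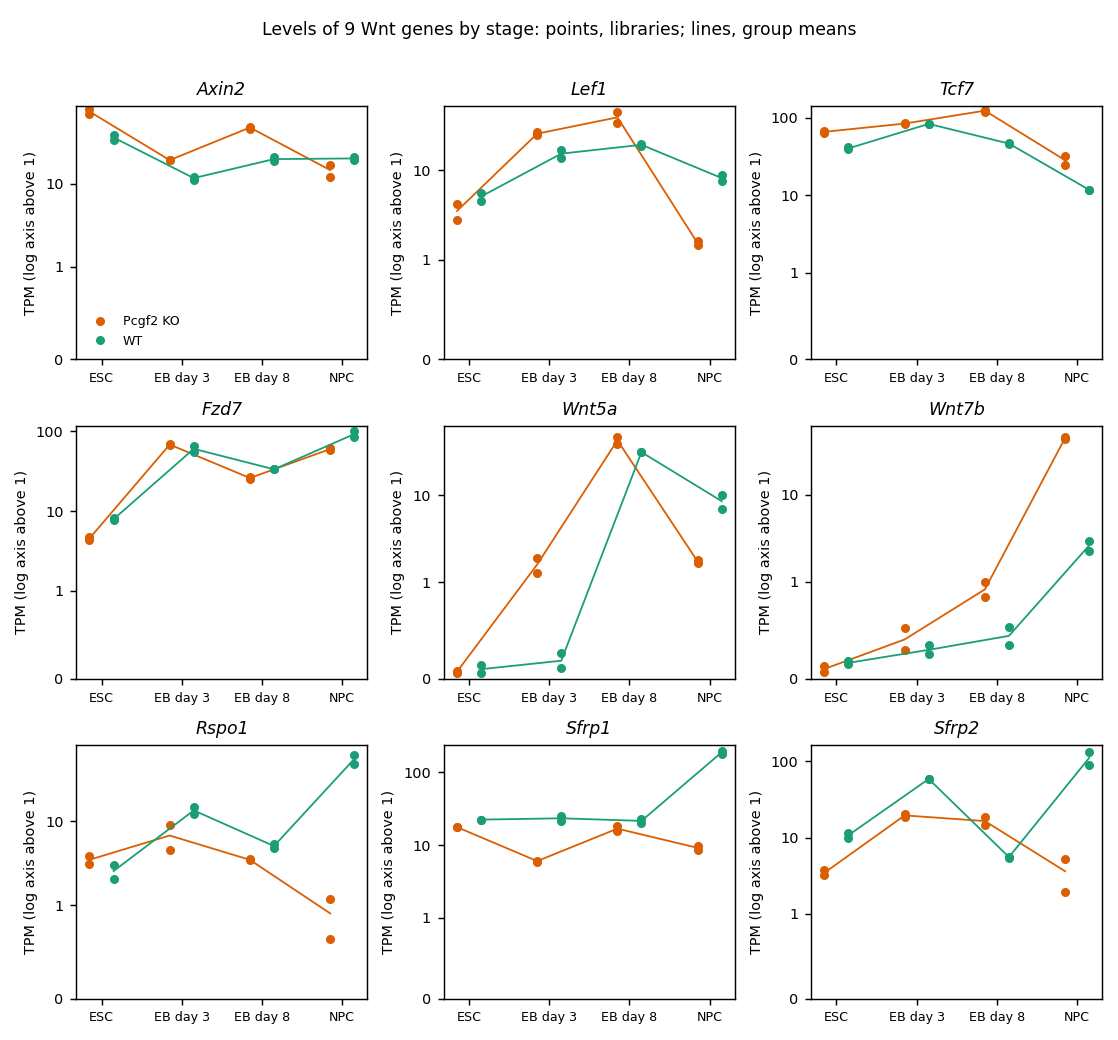
TPM of 9 Wnt genes at each stage in Pcgf2 KO (orange) and WT (green) cells, on an axis that is logarithmic above 1 and linear below; points are libraries and lines join group means. In NPC Rspo1, Sfrp1 and Sfrp2 are far lower in Pcgf2 KO than in WT, and Wnt7b is far higher.

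The first knock-out comparison asked whether Pcgf2 loss alters the Wnt genes while cells are still pluripotent. In Pcgf2 KO ESC 11 of 40 were called higher and 4 lower than in WT ESC, 37.5% against 36% of all genes (24.9% higher and 11% lower). Axin2 rose to 69.6 and 79.4 TPM in Pcgf2 KO ESC, against 39.1 and 33.5 in WT ESC (log2 fold change 1.02, SE 0.14, adjusted p 0.00015). Tcf7 rose to 63.8 and 67.9 TPM against 41.5 and 39.1 (0.69, SE 0.093, adjusted p 0.00016), and Lef1 was at 2.76 and 4.25 against 5.62 and 4.57 (-0.45, adjusted p 0.071). Fzd5 rose to 37.1 and 41.8 TPM against 23.1 and 21.1 (0.81), and Fzd9 to 3.81 and 4.31 against 1.29 and 1.79. Fzd7 fell to 4.33 and 4.73 TPM against 8.09 and 7.69 (-0.69), and Sfrp2 to 3.72 and 3.19 against 11.6 and 9.94 (-1.40, adjusted p 0.0026). Of the other pathway genes 11 rose and 10 fell, 45.7% against 36% of all genes. They were led by T at 11.1 and 14.4 TPM in Pcgf2 KO ESC against 5.08 and 5.36 in WT ESC (1.14).

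The median of all genes was shifted by 0.10 in ESC, and calls near that size depended on it. Lrp5 was called higher (0.24), but its difference was 0.05 after median-of-ratios scaling (adjusted p 0.62) and 0.04 after quantile normalization (0.67), and it was not called without any 1 of the 4 ESC libraries (adjusted p 0.061 to 0.16). Lrp6 was called higher (0.48), but its difference was 0.22 after quantile normalization (adjusted p 0.13), and it was not called without the second WT library (adjusted p 0.1) or the second Pcgf2 KO library (0.16). None of Lrp5, Lrp6 and Sfrp1 was called in a fit of the ESC groups alone (adjusted p 0.12, 0.075 and 0.058). Sfrp1 was called lower (-0.33), but not without any 1 of the 4 ESC libraries (adjusted p 0.085 to 0.1). The split of Wnt genes was 9 higher and 5 lower after median-of-ratios scaling, and 6 higher and 7 lower after quantile normalization. Without the second WT library 8 Wnt genes were called, 6 higher and 2 lower.

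On EB day 3 both co-receptors were called lower in Pcgf2 KO cells. Of 7 antagonists tested 3 were called higher and 2, Sfrp1 and Sfrp2, lower. In Pcgf2 KO EB of day 3, 8 of 40 Wnt genes were called higher and 11 lower than in WT EB day 3, 47.5% against 48.6% of all genes (16.7% higher and 31.9% lower), and with median-of-ratios scaling the split was 11 higher and 9 lower. Sfrp1 fell to 6.12 and 5.93 TPM in Pcgf2 KO, against 21.4 and 25.2 in WT (log2 fold change -1.79, SE 0.1, adjusted p 2e-07), and Sfrp2 to 18.6 and 20.4 against 58.0 and 59.0 (-1.54, SE 0.28, adjusted p 0.00092). Lrp6 fell to 13.9 and 15.3 TPM against 25.6 and 26.1 (-0.78), and Lrp5 to 40.1 and 38.9 against 50.5 and 57.8 (-0.44). The Pcgf2 KO libraries lay below both WT libraries for each of these 4 genes, which for Sfrp1 and Sfrp2 was a condition for being named.

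Other members rose. Wnt8a rose to 21.8 and 19.0 TPM in Pcgf2 KO EB day 3, against 8.22 and 5.79 in WT EB day 3 (1.43, SE 0.18, adjusted p 6.4e-05), and Sfrp4 to 6.97 and 6.65 against 3.38 and 3.16 (0.87). Axin2 rose to 19.4 and 19.3 TPM against 12.3 and 11.2 (0.68, adjusted p 0.0016), and Lef1 to 24.8 and 26.7 against 13.8 and 17.0 (0.71, adjusted p 0.0061, and 0.056 without the first WT library). Tcf7 was at 82.7 and 85.7 TPM against 83.3 and 83.5 (adjusted p 0.94). Rspo1 was called lower at 4.52 and 9.00 TPM against 12.2 and 14.7 (-0.95), but not without the second WT library (adjusted p 0.069) or the first Pcgf2 KO library (0.11). Fzd2 was called lower (-0.32), but not after either rescaling (adjusted p 0.36 and 0.56), nor without either WT library (0.084 and 0.091) or the second Pcgf2 KO library (0.16). Of the other pathway genes 4 rose and 29 fell, 71.7% against 48.6% of all genes, with a median of -0.45 beside -0.11 over all genes. Against that trend Notum rose to 62.1 and 63.0 TPM in Pcgf2 KO, against 1.64 and 1.80 in WT (4.55, SE 0.16, adjusted p 8.2e-09). Porcn, whose product attaches the lipid that Wnt ligands need, rose to 14.7 and 12.9 TPM against 2.84 and 2.69 (1.97), and T fell to 2.57 and 1.98 against 28.5 and 13.9 (-2.69). Markers of primitive streak and mesoderm summed to 22.9 and 23.3 TPM in Pcgf2 KO EB day 3 against 72.2 and 48.8 in WT, T among them, with 1 of 10 called higher and 4 lower. Of 10 naive pluripotency markers 8 were called higher. The part of either in the result was not tested.

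On EB day 8 all 3 nuclear genes were above WT. In Pcgf2 KO EB of day 8, 14 of 40 Wnt genes were called higher and 12 lower, 65% against 37.7% of all genes (20.6% higher and 17.1% lower). Tcf7 rose to 126.9 and 120.1 TPM in Pcgf2 KO, against 46.1 and 46.9 in WT (log2 fold change 1.39, SE 0.093, adjusted p 9.9e-07). Axin2 rose to 49.2 and 46.5 TPM against 18.7 and 21.1 (1.22, SE 0.14, adjusted p 3.7e-05), and Lef1 to 44.5 and 33.8 against 18.9 and 19.7 (0.97, SE 0.18, adjusted p 0.0013). Libraries of Pcgf2 KO and WT did not overlap for any of the 3. The Axin2 effect was larger than on EB day 3 by 0.55 (adjusted p 0.042), but the difference was not called after median-of-ratios scaling. The Tcf7 effect was larger by 1.38 (adjusted p 1.9e-05).

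Ligands of EB day 8 moved both ways, with 5 of 14 called higher and 2 lower. Among all genes 20.6% were called higher and 17.1% lower. Wnt8a rose to 4.91 and 5.28 TPM in Pcgf2 KO, against 0.594 and 0.530 in WT (1.96), and Wnt3 to 14.6 and 14.2 against 6.40 and 6.30 (1.07). Wnt11 fell to 4.45 and 4.78 TPM against 17.4 and 15.97 (-1.65), and Wnt2 to 3.40 and 3.44 against 13.1 and 12.2 (-1.63, SE 0.1, adjusted p 8.3e-07). Wnt5a, the most abundant ligand, was at 46.4 and 39.2 TPM against 31.6 and 31.2 (0.43, adjusted p 0.063). Receptors were divided in the same way, with 4 called higher and 4 lower: Fzd10 rose to 21.3 and 20.0 TPM against 7.94 and 7.44 (1.32), while Fzd4 fell to 6.89 and 6.57 against 17.1 and 18.4 (-1.28) and Fzd1 to 3.93 and 4.20 against 9.08 and 8.37 (-0.94). Among antagonists Sfrp2 rose to 18.4 and 14.5 TPM against 5.46 and 5.64 (1.40), and Dkk3 fell to 8.14 and 7.59 against 15.0 and 15.98 (-0.89). Dkk1 was called lower at 9.42 and 10.1 TPM against 16.5 and 17.1 (-0.73), though not with a pseudocount of 0.1 (adjusted p 0.12). Markers of cell types moved both ways in Pcgf2 KO EB day 8. Blood and endothelial markers summed to 344 and 361 TPM against 5508 and 4859.8 in WT (1 of 8 called higher, 5 lower). Fibroblast markers summed to 173 and 154 TPM against 1223 and 1268 (6 of 6 lower), and endoderm markers to 259 and 251 against 949 and 932 (10 of 10 lower). Naive pluripotency markers summed to 643 and 632 TPM against 227 and 207 (7 of 10 higher). Neural progenitor markers summed to 118 and 107 TPM against 29.9 and 27.0 (3 of 8 higher). Primed epiblast markers summed to 224 and 208 TPM against 81.1 and 80.2 (5 of 6 higher). Of 6 neural crest markers 3 were called higher and 1 lower. Their part in these results was not tested.

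**Figure D3:**
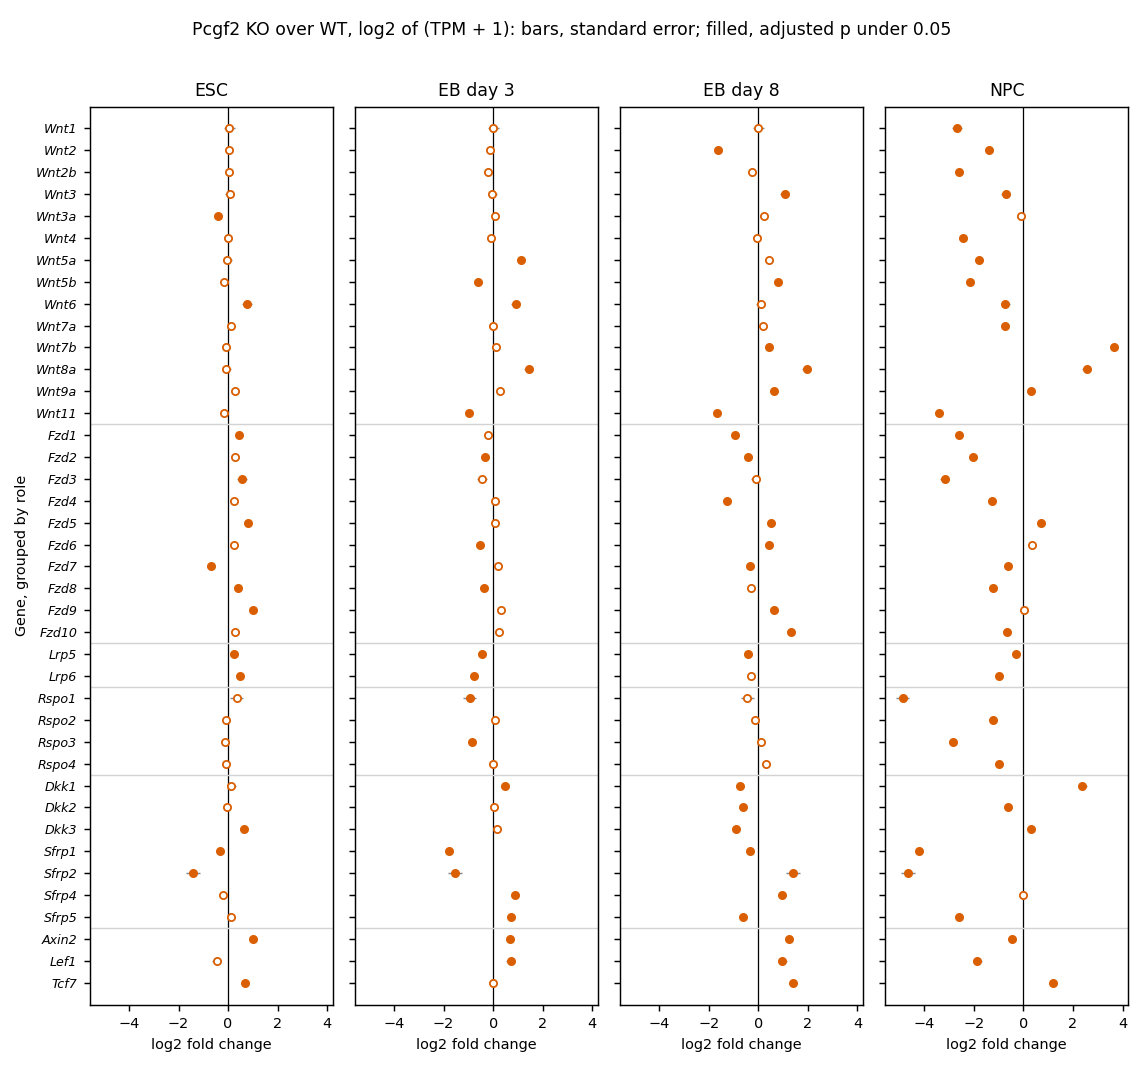
Log2 fold change of Pcgf2 KO over WT for the 40 Wnt genes tested, at each stage, on the log2(TPM + 1) scale; bars are standard errors and filled points have an adjusted p under 0.05. In NPC 29 of the 40 are called lower and 7 higher.

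In NPC most Wnt genes differed between Pcgf2 KO and WT. In Pcgf2 KO NPC 7 of 40 were called higher and 29 lower than in WT NPC, 90% against 66.2% of all genes (31.5% higher and 34.7% lower), with a median log2 fold change of -0.98 beside -0.03 over all genes. Those 40 include the genes that passed the filter only through WT NPC, which could not lie above WT here. The summed TPM of the 46 genes was 351.8 and 312.0 in Pcgf2 KO NPC, against 914.8 and 892.8 in WT NPC. Antagonists summed to 33.3 and 26.9 TPM against 321.7 and 345.0, R-spondins to 2.0 and 1.8 against 78.2 and 60.3, and receptors to 128.4 and 118.9 against 282.8 and 262.5. Sfrp1 and Sfrp2 made up most of the antagonist sum in WT NPC, and Rspo1 most of the R-spondin sum. Of 7 antagonists tested 4 were called lower and 2 higher.

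R-spondins, Sfrp antagonists, ligands and receptors were all among the genes below WT. Rspo1 fell to 1.19 and 0.636 TPM in Pcgf2 KO NPC, against 62.0 and 47.8 in WT NPC (log2 fold change -4.87, SE 0.26, adjusted p 1.5e-08). Sfrp2 fell to 5.31 and 1.93 TPM against 90.1 and 131 (-4.67, SE 0.28, adjusted p 4.6e-08), and Sfrp1 to 9.68 and 8.63 against 196.8 and 179.6 (-4.22, SE 0.1, adjusted p 4.2e-11). Rspo3 fell to 0.559 and 0.853 TPM against 12.7 and 10.2 (-2.86), and Sfrp5 to 4.70 and 3.63 against 29.5 and 30.6 (-2.59). Wnt11 fell to 1.19 and 0.962 TPM against 23.6 and 18.1 (-3.39). Fzd3 fell to 2.56 and 2.28 TPM against 26.6 and 33.8 (-3.18, SE 0.19, adjusted p 3.7e-08), and Fzd1 to 3.56 and 3.50 against 29.9 and 23.4 (-2.60). Of 14 ligands tested 10 were called lower and 3 higher, and of 10 receptors 7 lower and 1 higher. Among all genes 34.7% were called lower and 31.5% higher. Genes that passed the filter only through WT NPC may be among those counted as lower.

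A smaller set rose. Wnt7b, a ligand of neural and epithelial tissues, rose to 43.8 and 45.5 TPM in Pcgf2 KO NPC, against 2.26 and 2.98 in WT NPC (3.66, SE 0.13, adjusted p 6.7e-10). Wnt8a rose to 7.35 and 4.84 TPM against 0.122 and 0.249 (2.56), and Dkk1 to 9.53 and 8.92 against 1.13 and 0.818 (2.38). Fzd5, a receptor high in ESC, rose to 16.8 and 16.8 TPM against 11.1 and 8.64 (0.72). Wnt9a was called higher (0.32, adjusted p 0.036), but not without either WT library (adjusted p 0.057 and 0.15), without the second Pcgf2 KO library (0.19), with a pseudocount of 0.1 (0.23), with no filter (0.055) or in a fit of the NPC groups alone (0.097). Both libraries of Pcgf2 KO lay above both of WT for Wnt7b, Wnt8a, Dkk1 and Fzd5. Such genes were named only where libraries did not overlap, so this adds no support.

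The nuclear genes were split in NPC. Tcf7 rose to 31.9 and 24.8 TPM in Pcgf2 KO NPC, against 11.9 and 11.7 in WT NPC (1.19, SE 0.093, adjusted p 3.8e-07), while Lef1 fell to 1.46 and 1.61 against 7.52 and 8.89 (-1.86, SE 0.18, adjusted p 2.3e-06). Axin2, at 17.1 and 12.3 TPM against 19.4 and 21.2, was called lower (-0.46, adjusted p 0.011) but not without the second WT library (adjusted p 0.068), without the second Pcgf2 KO library (0.13) or in a fit of the NPC groups alone (0.054). Lrp6 fell to 28.8 and 22.5 TPM against 54.1 and 47.7 (-0.97), and Lrp5, at 32.9 and 28.6 against 38.9 and 37.8 (-0.31), was not called without the second Pcgf2 KO library (adjusted p 0.055). Of the other pathway genes 10 rose and 20 fell, 65.2% against 66.2% of all genes. Ccnd1, the cell cycle regulator cyclin D1 and a known Wnt target, fell to 2.91 and 2.36 TPM against 64.2 and 66.9 (-4.20, SE 0.071, adjusted p 4.9e-12), and Cdx1 rose to 20.1 and 16.4 against 0.162 and 0.166 (4.04).

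Marker sums moved in the same comparison. Of 8 neural progenitor markers 7 were called lower and 1 higher, with sums of 119.6 and 95.3 TPM in Pcgf2 KO NPC against 324 and 413 in WT NPC. Naive pluripotency markers summed to 1439.9 and 1350.3 TPM in Pcgf2 KO NPC, against 42.9 and 38.6 in WT NPC, with 10 of 10 called higher. Trophectoderm markers summed to 2366 and 2743 TPM against 302 and 297, with 5 of 6 called higher and none lower. Fibroblast markers summed to 4.20 and 4.41 TPM against 203 and 173, and blood and endothelial markers to 57.8 and 54.0 against 661 and 618. The part of these cells in the Wnt result was not tested.

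The Pcgf2 KO effect differed between stages for many genes, tested as contrasts of the same fit. From ESC to EB day 3, 6 of 40 Wnt genes had a more positive and 15 a more negative effect, 52.5% against 39.6% of all genes (8.54% more positive and 31.1% more negative). The median of all genes was itself -0.24, and after median-of-ratios scaling the split was 7 and 10, and after quantile normalization 7 and 11. From EB day 3 to EB day 8, 9 were more positive and 11 more negative, 50% against 38.8% (26.2% and 12.6%). From EB day 8 to NPC, 3 were more positive and 26 more negative, 72.5% against 55.5% (25% and 30.6%). Genes that passed the filter only through WT NPC are counted here too. For Sfrp2 the log2 fold change of Pcgf2 KO over WT was -1.40 in ESC, -1.54 in EB day 3, 1.40 in EB day 8 and -4.67 in NPC, so it lay above WT at a single stage.

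The second table compared Phc1 KO with Phc1-SAM KO cells. In Phc1 KO ESC 13 of 35 Wnt genes were called higher and 1 lower than in Phc1-SAM KO ESC, 40% against 43.8% of all genes (30.9% higher and 12.8% lower), but the split was 9 and 3 after median-of-ratios scaling and 8 and 8 after quantile normalization. Of 10 receptors 7 were called higher. Fzd2 stood at 7.59 and 6.83 TPM in Phc1 KO ESC, against 1.94 and 1.54 in Phc1-SAM KO ESC (log2 fold change 1.59, SE 0.097, adjusted p 3.6e-05), and Fzd7 at 14.8 and 15.6 against 6.20 and 6.88 (1.10, SE 0.072, adjusted p 4.7e-05). Fzd1 was at 4.22 and 4.85 TPM against 0.579 and 0.309, and Wnt5a at 4.07 and 4.36 against 0.679 and 0.734. Lrp5 (29.8 and 30.4 TPM against 19.1 and 19.6) and Lrp6 (28.1 and 27.9 against 19.5 and 19.6) were also higher. Among the 8 antagonists the lowest adjusted p was 0.18, for Sfrp5 at 2.05 and 2.08 TPM against 2.33 and 2.58.

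Fibroblast markers differed in the same comparison. They summed to 369.8 and 390.2 TPM in Phc1 KO ESC against 16.4 and 15.7 in Phc1-SAM KO ESC, with 5 of the 5 tested called higher, and their part in the values of Fzd1, Fzd2, Fzd7 and Wnt5a was not tested. Axin2 was called higher (0.37, adjusted p 0.0071) at 31.0 and 34.8 TPM against 25.2 and 25.2, but not after median-of-ratios scaling (0.15, adjusted p 0.14) or quantile normalization (0.13, adjusted p 0.19). Wnt5b (0.48) was not called after either rescaling (adjusted p 0.11 and 0.52), nor without the first library of Phc1 KO (0.089) or of Phc1-SAM KO (0.096). Wnt6 (-0.54) was not called without either Phc1 KO library (adjusted p 0.061 and 0.068) or the first Phc1-SAM KO library (0.1). Of the other pathway genes 26 were higher and 4 lower, 65.2% against 43.8% of all genes. They were led by Wls, the carrier that Wnt ligands need for secretion, at 38.5 and 37.2 TPM against 8.63 and 9.16 (1.97).

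In Phc1 KO NPC 3 of 35 Wnt genes were called higher and 3 lower than in Phc1-SAM KO NPC, 17.1% against 4.04% of all genes (2.52% higher and 1.52% lower), and after either rescaling the split was 1 higher and 3 lower. Sfrp1 rose to 102.8 and 99.8 TPM in Phc1 KO NPC, against 55.6 and 56.5 in Phc1-SAM KO NPC (0.84, SE 0.065, adjusted p 0.0025). The other 5 calls, of Fzd1, Wnt4, Wnt6, Sfrp5 and Tcf7, were each lost without any 1 of the 4 libraries, so that 1 call was left each time. Tcf7 was at 33.1 and 34.9 TPM against 45.7 and 44.8 (-0.40, adjusted p 0.018), and Sfrp5 at 11.2 and 10.7 against 19.0 and 19.2 (-0.75, adjusted p 0.012). Endoderm markers summed to 87.8 and 94.1 TPM in Phc1 KO NPC against 136 and 141 in Phc1-SAM KO NPC, with 8 of 10 called lower and none higher. Naive pluripotency markers summed to 1369 and 1377 TPM against 1145 and 1128, with 5 of 10 called higher and none lower. Their part in the result was not tested, and neither was the difference between the ESC and NPC comparisons of these genotypes.

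Both genotypes changed their Wnt genes between ESC and NPC. In Phc1 KO NPC 24 of 35 were called higher and 4 lower than in Phc1 KO ESC, 80% against 62.8% of all genes (35% higher and 27.8% lower). In Phc1-SAM KO NPC 28 were called higher and 4 lower than in Phc1-SAM KO ESC, 91.4% against 67.6% of all genes (43.8% higher and 23.8% lower). Fzd5 fell in each, to 5.85 and 6.07 TPM in Phc1 KO NPC against 69.0 and 64.1 in Phc1 KO ESC (-3.28, SE 0.068, adjusted p 1.7e-07), and to 4.91 and 5.20 in Phc1-SAM KO NPC against 63.0 and 60.6 in Phc1-SAM KO ESC (-3.38). Wnt4 rose to 13.3 and 12.6 TPM in Phc1 KO NPC against 0.424 and 0.427 in ESC (3.29), and to 7.43 and 8.83 in Phc1-SAM KO NPC against 0.248 and 0.236 (2.87). Wnt8a rose to 8.77 and 7.92 TPM in Phc1 KO NPC, against 0.697 and 0.458 in ESC (2.57), and Sfrp1 to 102.8 and 99.8 against 25.1 and 22.5 (2.04). Lef1 and Tcf7 were called higher in the NPC of both genotypes. The call of Lrp5 in Phc1 KO (0.20) was lost after either rescaling (adjusted p 0.075 and 0.091), without either ESC library (0.083 and 0.058) and without the first NPC library (0.14). The call of Lrp6 (0.19) was lost after either rescaling (adjusted p 0.074 and 0.087) and without any 1 of the 4 libraries (0.061 to 0.11). The call of Axin2 in Phc1-SAM KO (0.36) was lost after either rescaling (adjusted p 0.18 and 0.21). Trophectoderm markers summed to 393 and 389.7 TPM in Phc1 KO NPC against 38.7 and 36.4 in Phc1 KO ESC, and to 514 and 485 in Phc1-SAM KO NPC against 43.9 and 46.8 in Phc1-SAM KO ESC, with 5 of the 5 tested called higher in each. Endoderm markers summed to 87.8 and 94.1 TPM in Phc1 KO NPC against 8.77 and 10.2 in ESC (6 of 10 higher), and to 136 and 141 in Phc1-SAM KO NPC against 8.30 and 7.21 (10 of 10 higher). Fibroblast markers summed to 46.5 and 51.2 TPM in Phc1 KO NPC against 369.8 and 390.2 in ESC (4 of 5 lower). In Phc1-SAM KO NPC they summed to 41.4 and 33.4 TPM against 16.4 and 15.7 (1 of 5 higher, 2 lower). Naive pluripotency markers were called lower in NPC for 9 of 10 in Phc1 KO and 10 of 10 in Phc1-SAM KO. Neural progenitor markers summed to 114 and 116 TPM in Phc1 KO NPC against 156 and 148 in ESC (2 of 5 tested higher, 3 lower). In Phc1-SAM KO NPC they summed to 77.7 and 76.1 TPM against 224 and 219 (1 of 5 higher, 2 lower). Their part in these results was not tested.

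**Figure D4:**
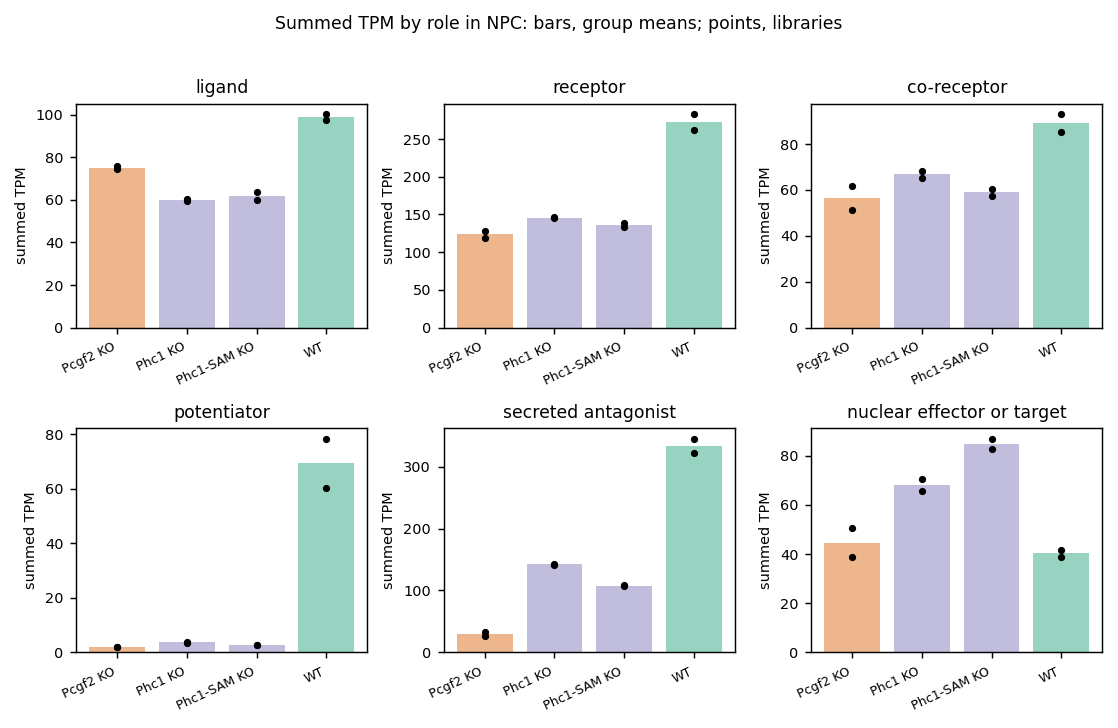
Summed TPM of the Wnt genes by role in NPC of the 3 knock-outs and of WT; bars are group means and points are libraries. Ligands, receptors, co-receptors, R-spondins and antagonists are highest in WT NPC, and nuclear effectors or targets are highest in Phc1-SAM KO NPC. Phc1 KO and Phc1-SAM KO come from the second table and are shown beside WT without a test.

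Levels in NPC of all 4 genotypes stand side by side below, although the 2 tables were normalized separately, so no test was made between Phc1 genotypes and WT. Rspo1 was at 1.19 and 0.636 TPM in Pcgf2 KO, 2.47 and 2.33 in Phc1 KO and 1.71 and 1.53 in Phc1-SAM KO, against 62.0 and 47.8 in WT. Sfrp1 was at 9.68 and 8.63 TPM in Pcgf2 KO, 102.8 and 99.8 in Phc1 KO and 55.6 and 56.5 in Phc1-SAM KO, against 196.8 and 179.6 in WT. Every knock-out library thus lay below both WT libraries for these 2 genes, with Pcgf2 KO lowest. Wnt7b was at 43.8 and 45.5 TPM in Pcgf2 KO, 4.74 and 5.04 in Phc1 KO and 3.89 and 3.14 in Phc1-SAM KO, against 2.26 and 2.98 in WT. Wnt8a was at 7.35 and 4.84 TPM in Pcgf2 KO, 8.77 and 7.92 in Phc1 KO and 9.08 and 7.85 in Phc1-SAM KO, against 0.122 and 0.249 in WT. The sum of the 46 genes was 351.8 and 312.0 TPM in Pcgf2 KO, 487.8 and 484.2 in Phc1 KO and 455.7 and 448.1 in Phc1-SAM KO, against 914.8 and 892.8 in WT.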

How the data were processed

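RNA-seq was deposited as 2 tables of TPM values per gene and library, made by the authors from reads of the 24 libraries. The submitters' processing notes name kallisto, STAR, DESeq2 and the mm10 build among their tools, with no role or version. How transcripts were summed to genes, and on which annotation, is not given in the sources used here. TPM keep no read counts, so the depth is unknown. The first table held 16 libraries and the second 8; 4 further columns of the second table, labelled WT, were not used because their unit was unclear. The tables were normalized separately, so tests were made within a table.

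A gene was tested where it reached 1 TPM in at least 2 libraries of its table. limma 3.58.1 (R 4.3.3; lmFit and eBayes with trend) was fitted two-sided to log2(TPM + 1) with a mean per group, over all genes and libraries of a table, and p-values were adjusted by Benjamini-Hochberg at 0.05. In all, 15 comparisons were made, and the procedure was tested on simulated data. Alternatives were a pseudocount of 0.1, no filter, a filter at 5 TPM, median-of-ratios scaling, quantile normalization, a replicate block, only the groups compared and leaving out each library.

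The genes named with full values were Axin2, Lef1, Tcf7, Lrp5 and Lrp6 where called, up to 6 members in each direction with the largest change among called members that averaged 5 TPM or more in some group and whose groups did not overlap, the 4 largest called differences between stages, and up to 3 other pathway genes per comparison. Further members are named with their values for completeness, and were chosen after their values were seen. The members and lists were chosen with earlier results of these data known. Promoter sequences came from RefSeq (GRCm38.p6).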

Additional observations from a re-analysis of the deposited data

Results flagged for a closer look

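The 12 gene and stage pairs named here were picked for the size of their difference in the Pcgf2 KO effect between stages. Each was called by a test of the difference in the same limma fit with Benjamini-Hochberg adjustment. The number 12 was set by the rule for naming and does not count all calls. Between EB day 3 and ESC 21 of 40 Wnt genes were called, 52.5% against 39.6% of all genes. Between EB day 8 and EB day 3 it was 20 of 40, 50% against 38.8%. Between NPC and EB day 8 it was 29 of 40, 72.5% against 55.5%. Differences are on the log2(TPM + 1) scale, later stage minus earlier stage.

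Between EB day 3 and ESC the difference was 1.50 for Wnt8a (adjusted p 0.00086), -1.46 for Sfrp1 (adjusted p 2.7e-05) and -1.26 for Lrp6 (adjusted p 0.0004). For Rspo1 it was -1.30 (adjusted p 0.015), but the call was lost without the first WT ESC library (adjusted p 0.056), the second WT EB day 3 library (0.058) or the first Pcgf2 KO EB day 3 library (0.053), and after both rescalings (0.056 and 0.13).

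Between EB day 8 and EB day 3 the difference was 2.94 for Sfrp2 (adjusted p 0.0002), 1.45 for Sfrp1 (adjusted p 2.5e-05), 1.38 for Wnt5b (adjusted p 0.00054) and -1.50 for Wnt2 (adjusted p 2.3e-05). The Sfrp1 effect thus moved down at the first step and up at the next.

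Between NPC and EB day 8 the difference was -6.07 for Sfrp2 (adjusted p 2.3e-07), -4.43 for Rspo1 (adjusted p 1.3e-06), -3.88 for Sfrp1 (adjusted p 4.1e-09) and 3.25 for Wnt7b (adjusted p 8.5e-08). WT EB day 8 libraries also differ from the other WT libraries in Eif2s3y, at 50.4 and 64.7 TPM, and its part in the differences that involve EB day 8 was not tested.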

How the results depend on the processing

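Of 1775 recomputed values of 157 named results, 1673 kept direction and side of the threshold, 101 lost the call and 1 turned: Lef1 in WT NPC against WT ESC, at -0.27 after quantile normalization. The cause was not tested. In Pcgf2 KO against WT ESC 15 Wnt genes were called, against 8 in a fit of these groups alone (23 genes tested) and 8 to 11 with a library left out. In Phc1 KO against Phc1-SAM KO NPC 6 were called, against 3 with no filter, 3 with the replicate block and 1 with any of the 4 libraries left out. In Phc1-SAM KO NPC against ESC 32 were called, against 20 with a filter at 5 TPM, where 21 genes were tested. The other 12 counts stayed within 1.5 times under every alternative run. Same-numbered libraries did not deviate together (correlations of -0.18 to 0.13 over the first table, and of -0.032 to 0.021 over the second). The values thus gave no sign of pairing by number, but cannot show whether same-numbered libraries were handled together. The replicate block lost 4 named calls. The median of all genes moved by 0.46 in WT NPC against WT ESC, where 9579 genes were called higher and 3868 lower, against 6551 and 6583 after median-of-ratios scaling. Depth limits low genes, and it is unknown here.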
